A study of Mus musculus with 24 samples.

Results

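The genes described here are the axon guidance families of the mouse genome as named in the deposited read-count table: semaphorins (Sema), their plexin (Plxn) and neuropilin (Nrp) receptors, ephrins (Efn) and Eph receptors, Slits and their Robo receptors, and netrins (Ntn) with their Unc5 receptors. They were chosen by gene symbol alone, and 68 of the 21669 genes of the table belong to these 9 families: 20 semaphorins, 9 plexins, 2 neuropilins, 8 ephrins, 14 Eph receptors, 3 Slits, 4 Robo receptors, 4 netrins and 4 Unc5 receptors. Polyadenylated RNA of 2 mouse cell lines was sequenced in 24 libraries after a migration assay. K-Luc is a luciferase-expressing derivative of the KR158B glioma line, of C57BL/6 origin, and RAW-Blue is the RAW 264.7 macrophage line carrying a secreted alkaline phosphatase reporter for NF-kB and AP-1. Every RAW-Blue library, the untreated ones included, thus comes from reporter cells. Each line had 5 groups: untreated cells given water, cells given CpG (the oligodeoxynucleotide CpG-28 at 10 µg/mL), SWNT/LP (single-walled carbon nanotubes at 10 µg/mL dispersed in lipid-PEG at 10 µg/mL), CpG+SWNT/LP (both of these, added unjoined) or SWNT/CpG (nanotubes at 10 µg/mL dispersed in CpG-28 at 10 µg/mL, with no lipid-PEG). K-Luc had 2 untreated libraries and 3 of each other group, and RAW-Blue had 2 of each group.

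Cells adhered for 24 h and were then treated for 17 to 19 h (K-Luc) or 47 to 50 h (RAW-Blue). K-Luc cells were also plated outside the culture insert, so cell line, time and plating cannot be told apart. No group received an oligonucleotide other than CpG-28, so a response to DNA and a response to its CpG sequence cannot be told apart. SWNT/CpG differs from CpG+SWNT/LP both in the joining and in the absence of lipid-PEG. It differs from CpG both in the joining and in the presence of nanotubes. The labels do not say that replicates were separate cultures, so the p-values measure the spread between these libraries, which may be technical.

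Guidance genes were named for steering growing axons. A ligand on one cell or in the matrix binds a receptor on another, and the receptor acts on adhesion and the cytoskeleton to attract, repel or separate cells. Class 3 semaphorins are secreted and mostly bind neuropilins, which pair with plexins as the signalling chain, whereas most other semaphorins are membrane-bound and bind plexins directly. Ephrins and Eph receptors, both at the cell surface, signal on contact. Slits are secreted ligands of Robo receptors, and netrins are laminin-related ligands that act through Dcc and Unc5 receptors. The same genes serve outside the nervous system in vessel growth, in immune cell contacts and in the migration of tumour cells, glioma included.

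The promoters of 4 members on which the results below turn are shown first: Sema7a, Slit2 and Epha4 for their patterns in glioma cells and Nrp1 for its pattern in macrophages. Each line gives the 250 bases before the RefSeq start of the gene (assembly GRCm38.p6), 5′ to 3′ on the gene's strand, at chr9:57939862-57940111 (Sema7a, plus strand), chr5:47982905-47983154 (Slit2, plus strand), chr1:77515089-77515338 (Epha4, minus strand) and chr8:128358823-128359072 (Nrp1, plus strand). Capitals mark every match to GGGNNNNNCC, a loose form of the NF-kB site, on either strand.
Sema7a: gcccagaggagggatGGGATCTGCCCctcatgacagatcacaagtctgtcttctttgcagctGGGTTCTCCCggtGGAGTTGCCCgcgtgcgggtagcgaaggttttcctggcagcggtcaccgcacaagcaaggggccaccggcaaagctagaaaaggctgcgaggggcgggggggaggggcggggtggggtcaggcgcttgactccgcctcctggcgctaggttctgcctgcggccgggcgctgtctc
Slit2: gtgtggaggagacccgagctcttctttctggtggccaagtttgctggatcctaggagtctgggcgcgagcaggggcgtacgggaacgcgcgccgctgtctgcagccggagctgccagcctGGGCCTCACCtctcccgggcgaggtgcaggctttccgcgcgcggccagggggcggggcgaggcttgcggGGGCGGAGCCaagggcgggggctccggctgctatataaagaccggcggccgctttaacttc
Epha4: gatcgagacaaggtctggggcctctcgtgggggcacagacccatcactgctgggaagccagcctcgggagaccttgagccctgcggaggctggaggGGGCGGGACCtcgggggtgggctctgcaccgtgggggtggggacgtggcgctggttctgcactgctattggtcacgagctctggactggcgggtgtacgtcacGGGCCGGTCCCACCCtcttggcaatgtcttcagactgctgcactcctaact
Nrp1: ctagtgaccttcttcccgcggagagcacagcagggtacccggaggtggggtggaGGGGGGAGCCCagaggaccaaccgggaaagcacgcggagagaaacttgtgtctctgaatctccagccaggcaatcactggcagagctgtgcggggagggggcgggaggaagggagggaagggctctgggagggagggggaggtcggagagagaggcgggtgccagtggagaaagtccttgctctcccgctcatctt
The search was made because the RAW-Blue reporter reads NF-kB and AP-1. GGGNNNNNCC was present in all 4 windows, in 48 of the 75 RefSeq promoters of the 59 members that matched the table (64%) and in 45.8% of all 32851 promoters of the same length, so its presence does not set these 4 genes apart. TGANTCA, the AP-1 site searched on both strands, was in none of the 4 windows, in 3 of the 75 member promoters and in 6.75% of all. The GC box GGGCGG was in 53 of the 75 member promoters (70.7%) and in 32.7% of all, and 1 of its 3 matches in Slit2 and its 1 match in Epha4 overlap the capitals. These are matches of letters, not sites at which a factor was shown to bind.

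Between 13318636 and 24130359 reads were counted on genes in a library. Of the 68 members, 53 had enough counts to be tested in K-Luc and 26 in RAW-Blue, 24 of them in both lines, and 13 were tested in neither line. In K-Luc 6 members, Epha5, Epha10, Ephb1, Robo3, Unc5a and Unc5d, had no count in any of the 14 libraries, and in RAW-Blue 11 had none in any of the 10. The macrophage label fitted its markers: all 11 macrophage genes of the list found in the table had a median above 1 RPKM in RAW-Blue, and 1 of 11 did in K-Luc. In K-Luc 6 of 12 glial and glioma markers passed that level, led by Vim, with Sox2 at 24.1 to 38.9 and Nes at 17.4 to 25.3 RPKM, whereas Gfap, S100b, Olig2 and Aqp4 were at 0.1 RPKM or less. Fabp7 (median 0.3 RPKM) and Slc1a3 (median 0.1) did not pass either. In RAW-Blue 2 of 12 passed, Vim at 516 to 672 and Nes at 1.0 to 2.4 RPKM, so these 2 are not particular to K-Luc. Sox2 was at 0 in every RAW-Blue library. Endothelial and lymphoid lists summed to at most 1.4 RPKM in any library. The 8 neuron markers summed to 22.7 to 30.7 RPKM in K-Luc and to 0.8 to 2.2 in RAW-Blue. In K-Luc Map2, Syn1 and Tubb3 were above 1 RPKM and the other neuron markers at 0.1 RPKM or less. The 6 fibroblast markers summed to 686 to 1456 RPKM in K-Luc and to at most 0.2 in RAW-Blue. In these bulk samples fewer expressing cells and less RNA per cell cannot be told apart.

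The receptors Plxnb2, Nrp2, Plxna1 and Plxnd1 were among the 10 highest members in both lines, and 29 members had enough counts to be tested in K-Luc only. Levels between genes are compared here on the deposited RPKM, which are per gene length. In K-Luc the highest members were the receptors Plxnb2 (median 73.2 RPKM over 14 libraries) and Nrp2 (34.7), then the ligand Slit2 (21.5), Plxna1 (20.4), the netrin receptor Unc5b (18.9), the ephrin Efnb2 (16.6), Plxnd1 (16.3), Epha2 (15.0), Slit3 (13.7) and Sema7a (12.6). The ranges of Plxnb2 (61.5 to 82.3 RPKM) and Nrp2 (26.0 to 45.1) did not overlap, whereas from Slit2 downwards each range overlapped that of its neighbour in the order. In RAW-Blue Plxnb2 (69.3 RPKM over 10 libraries) and Nrp2 (59.5) again led, followed by Sema4d (48.2), a class 4 semaphorin of immune cells that binds B plexins and Cd72, then Plxnd1 (25.7), Plxna1 (12.7), Sema4a (11.7), Sema6b (10.1), Plxnc1 (6.25), Plxna2 (5.20) and Sema5a (4.70). The ranges of Plxnb2 (61.4 to 102 RPKM), Nrp2 (50.0 to 68.1) and Sema4d (42.0 to 67.0) overlapped in pairs.

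**Figure D1:**
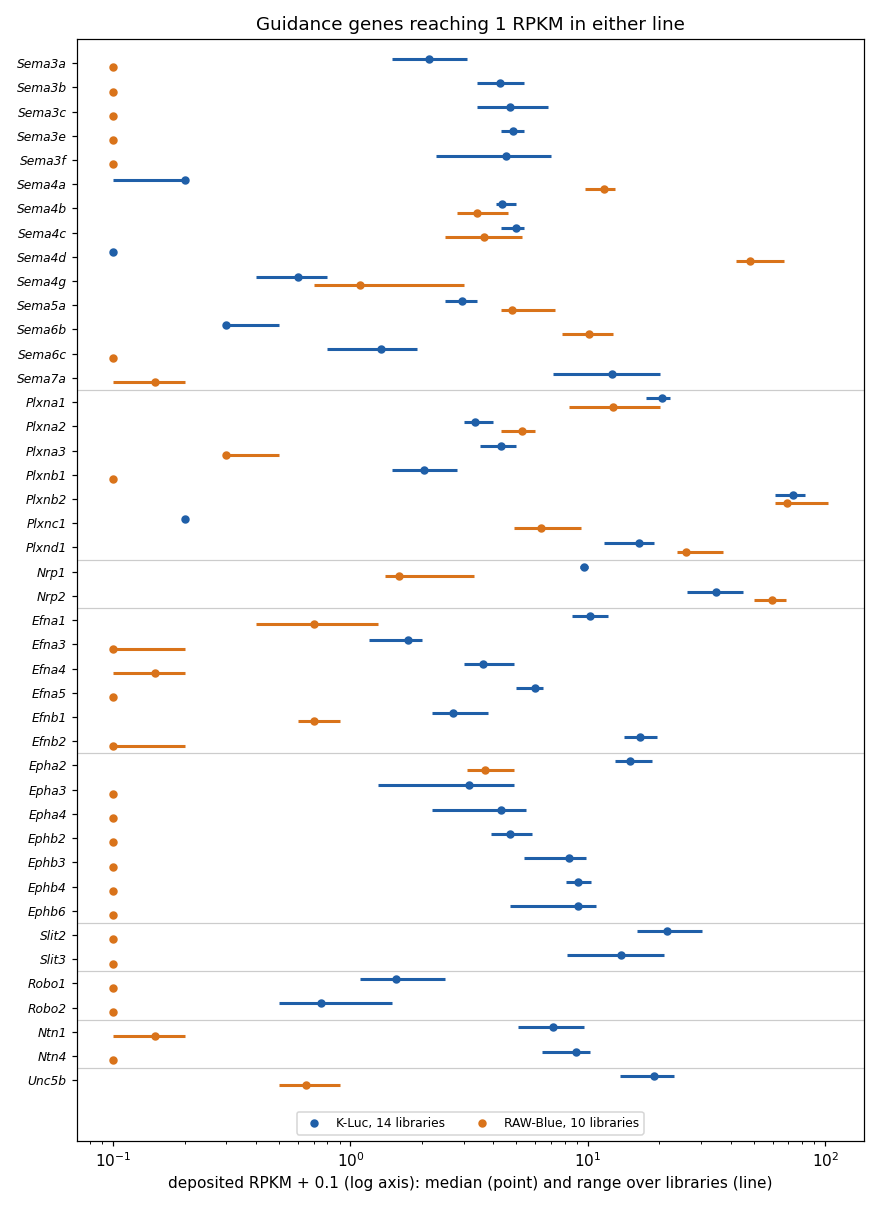
Deposited RPKM of the 43 guidance genes that reached 1 RPKM in a library of either line, on a log axis after adding 0.1, with the median as a point and the range over the 14 K-Luc (blue) or 10 RAW-Blue (orange) libraries as a line. Plxnb2 and Nrp2 are high in both lines, class 3 semaphorins, Eph receptors other than Epha2, Slits and Robo1 and Robo2 sit at or near 0 in RAW-Blue, and Sema4d sits at 0 in K-Luc.

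Untreated cells of the 2 lines differed at 51 of the 54 members tested in both lines together, 11 higher in RAW-Blue and 40 higher in K-Luc, against 77.9% of all 13350 genes tested, 37% higher in RAW-Blue and 40.9% higher in K-Luc (edgeR quasi-likelihood test, Benjamini-Hochberg adjusted p below 0.05, the rule for "called" throughout). Both untreated RAW-Blue libraries had no count for 14 members that had over 10 counts in each untreated K-Luc library. A level of 3 counts was chosen as a floor for a count of 0 in each library, although a count of 0 does not strictly exclude a higher level. Against this floor Slit3 was at least 380-fold higher in K-Luc, the secreted semaphorin Sema3e at least 381-fold, Ephb3 at least 307-fold, Efna5 at least 281-fold, Ephb2 at least 212-fold, Sema3a at least 179-fold and Sema3c at least 175-fold. The bounds were lower for Ephb6 (at least 149-fold), Ntn4 (at least 148-fold) and Robo1 (at least 102-fold). These bounds cover counting error only. Slit2 had 5162 and 8746 reads in untreated K-Luc and 1 and 0 in untreated RAW-Blue, and Efnb2 had 1505 and 2261 against 2 and 7. Unc5b was also lower in RAW-Blue (log2 -4.45 ± 0.12). In the other direction Sema4d had 8573 and 8227 reads in untreated RAW-Blue and 3 and 1 in untreated K-Luc. The macrophages were also higher in Plxnc1, the receptor of Sema7a (log2 7.52 ± 0.22), Sema4a (7.37 ± 0.24), Sema6b (5.88 ± 0.21), Sema4g (2.81 ± 0.28), Plxnd1 (1.67 ± 0.09) and Nrp2 (1.13 ± 0.08). Robo3 had no count in K-Luc and was at least 12.6-fold higher in RAW-Blue. Plxnc1 and Sema7a were thus on opposite lines: Sema7a was counted at 62.7 and 65.6 CPM (read counts scaled to library size and composition) in untreated K-Luc and at 0 and 0.0526 CPM in untreated RAW-Blue.

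In K-Luc glioma cells the guidance genes that were called mostly rose in the groups with CpG, free or on nanotubes, and lipid-coated nanotubes alone moved none past the test. With CpG 23 of the 53 tested members were called, 21 higher and 2 lower, against 36.2% of all 12420 genes (17.9% higher, 18.4% lower). With CpG+SWNT/LP 21 were called, 19 higher and 2 lower, against 33.9% of all genes (16.1% higher, 17.8% lower). With SWNT/CpG 26 were called, 22 higher and 4 lower, against 43.1% of all genes (21.8% higher, 21.3% lower). These 3 comparisons share the 2 untreated libraries. The median log2 fold change of the tested members was 0.28, 0.17 and 0.18 in these comparisons, beside 0.01 over all genes in each. With SWNT/LP edgeR called 0 of the 53 members against 0.129% of all genes (0.0886% higher, 0.0403% lower). Of them 2 had an unadjusted p below 0.05, and DESeq2 also called 0. Many calls were lost without untreated replicate 2, which left 1 untreated library, from the first sequencing run. Then 8 members were called with CpG, 9 with CpG+SWNT/LP and 14 with SWNT/CpG, and over all genes the calls fell alike, from 4498, 4213 and 5347 to 1531, 1454 and 2770. The summed RPKM of 6 fibroblast markers moved with the same groups, from 722 to 915 in untreated and 686 to 930 in SWNT/LP libraries to 1168 to 1357 with CpG, 1133 to 1212 with CpG+SWNT/LP and 1329 to 1456 with SWNT/CpG. Of these markers Col1a1, Col1a2, Col3a1 and Pdgfrb were above 1 RPKM and Dcn and Lum were at 0.1 RPKM or less. Their part in the members' rises was not tested.

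**Figure D2:**
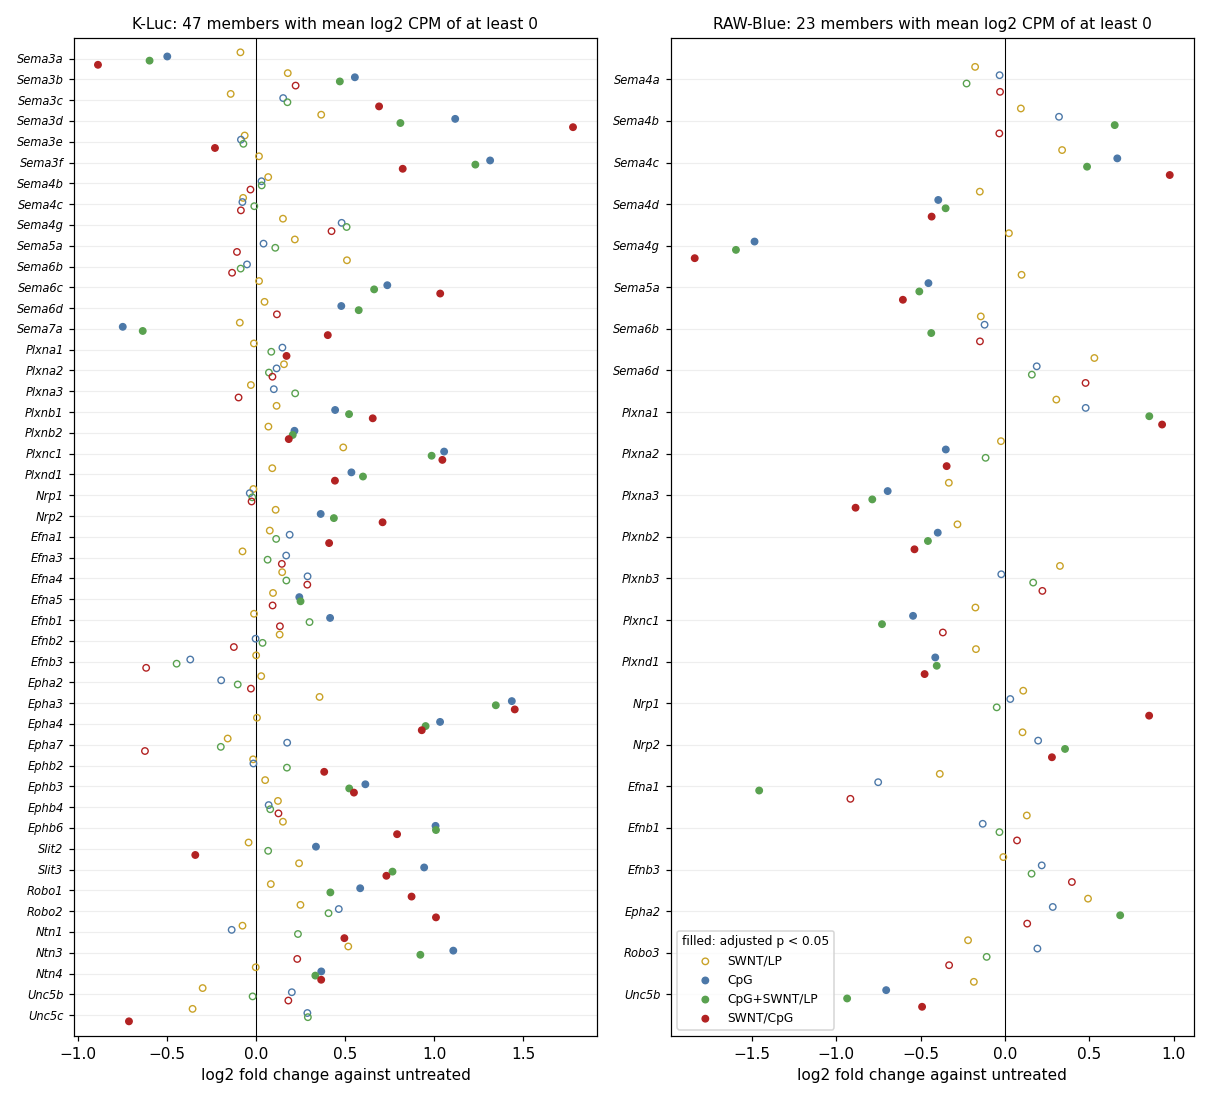
Log2 fold changes against untreated cells for the members whose average log2 CPM was 0 or more in K-Luc (left, 47 members) and RAW-Blue (right, 23 members), with 1 colour per treatment and filled points for adjusted p below 0.05. In K-Luc most filled points lie right of 0 and in RAW-Blue most lie left of it, and no point for SWNT/LP is filled in either line.

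Among the 16 semaphorins tested in K-Luc, 5 rose and 2 fell with each form of CpG. Sema3b, Sema3d, Sema3f, Sema6c and Sema6d were higher and Sema3a and Sema7a lower with CpG, and likewise with CpG+SWNT/LP. With SWNT/CpG Sema3c, Sema3d, Sema3f, Sema6c and Sema7a were higher and Sema3a and Sema3e lower. Sema3f, a secreted ligand of Nrp2, was at 17.5 and 13.2 CPM in untreated, 17.1, 13.5 and 13.4 in SWNT/LP, 40.8, 34.6 and 32.4 in CpG, 35.6, 34.3 and 34.7 in CpG+SWNT/LP and 26.7, 25.4 and 26.6 in SWNT/CpG libraries. All 9 libraries that received CpG were above all 5 that did not, and the 3 SWNT/CpG libraries were the lowest of the 9. The rise was log2 1.31 ± 0.13, adjusted p = 4.39e-06 with CpG (estimate ± SE throughout), 1.23 ± 0.12 with CpG+SWNT/LP and 0.82 ± 0.13 with SWNT/CpG. Sema3f was lower with SWNT/CpG than with CpG by a tested margin (log2 -0.49 ± 0.10, adjusted p = 0.00308). Its receptor Nrp2 also rose with all 3 forms of CpG but was highest, not lowest, of them with SWNT/CpG. It was at 410.4 and 373 CPM in untreated, 437, 392 and 410.0 in SWNT/LP, 529, 481 and 466 in CpG, 542, 508 and 527 in CpG+SWNT/LP and 635, 629.6 and 640.2 in SWNT/CpG libraries. The 3 SWNT/CpG libraries were the highest of the 14. The rise of Nrp2 was log2 0.71 ± 0.06, adjusted p = 1.35e-07 with SWNT/CpG, and SWNT/CpG exceeded CpG by log2 0.35 ± 0.05, adjusted p = 0.000283.

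Sema3a, the secreted repellent that acts through Nrp1 and A plexins, fell with all 3 forms of CpG. It was at 31.2 and 36.5 CPM in untreated, 27.8, 34.8 and 34.7 in SWNT/LP, 21.5, 26.1 and 25.9 in CpG, 21.8, 21.6 and 24.4 in CpG+SWNT/LP and 20.0, 17.0 and 18.8 in SWNT/CpG libraries, with no overlap between the 9 libraries with CpG and the 5 without. The falls were -0.50 ± 0.12, -0.60 ± 0.11 and log2 -0.89 ± 0.12, adjusted p = 1.99e-05, in the same order of groups. The first 2 lost their call without untreated replicate 2 (log2 -0.32, adjusted p = 0.278 and log2 -0.45, adjusted p = 0.0972). Nrp1, the receptor, was level at 137 to 149 CPM in all 14 libraries and was called in none of the 6 comparisons of 2 groups. The secreted Sema3c, a ligand of both neuropilins, was called against untreated only with SWNT/CpG: its libraries were at 30.5 and 34.2 CPM in untreated and 51.9, 54.4 and 53.9 with SWNT/CpG, a rise of log2 0.69 ± 0.14, adjusted p = 0.00122. SWNT/CpG also exceeded CpG (0.54 ± 0.12) and CpG+SWNT/LP (0.51 ± 0.12), the latter not without CpG+SWNT/LP replicate 1 (log2 0.43, adjusted p = 0.0568). Sema3d went from 2.17 and 2.74 to 10.9, 7.71 and 6.86 CPM with SWNT/CpG, the largest fold of a called member in that comparison (log2 1.78 ± 0.28, adjusted p = 0.000157). Sema3b rose with CpG (0.55 ± 0.10) and CpG+SWNT/LP (0.47 ± 0.09) and was not called with SWNT/CpG (log2 0.22 ± 0.10, adjusted p = 0.074).

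Sema7a, a GPI-anchored semaphorin that binds Plxnc1 and beta-1 integrins, had the largest fold of all called members between nanotube-bound and unbound CpG in K-Luc. Its libraries were at 62.7 and 65.6 CPM in untreated, 67.7, 59.2 and 72.8 in SWNT/LP, 35.9, 42.8 and 48.0 in CpG, 33.5, 40.7 and 54.2 in CpG+SWNT/LP and 75.5, 88.5 and 99.2 in SWNT/CpG. The 6 libraries with unbound CpG were the lowest and the 3 with SWNT/CpG the highest of the 14. Sema7a fell with CpG (log2 -0.75 ± 0.16, adjusted p = 0.00321) and with CpG+SWNT/LP (log2 -0.64 ± 0.15, adjusted p = 0.00638), the latter not without untreated replicate 1 (log2 -0.50, adjusted p = 0.0598). SWNT/CpG exceeded CpG by log2 1.15 ± 0.13, adjusted p = 0.000109 and CpG+SWNT/LP by log2 1.04 ± 0.13, adjusted p = 0.000152. Its excess over untreated was smaller (log2 0.40 ± 0.15, adjusted p = 0.0437) and lost its call without untreated replicate 2 (log2 0.21, adjusted p = 0.51), without SWNT/CpG replicate 1 (log2 0.40, adjusted p = 0.1), without SWNT/CpG replicate 3 (log2 0.35, adjusted p = 0.107) and with DESeq2 (log2 0.38, adjusted p = 0.0674).

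Of the other semaphorins, the transmembrane Sema6c rose with all 3 forms of CpG, from 6.75 and 5.09 CPM in untreated to 11.8, 11.3 and 11.6 with SWNT/CpG (log2 1.03 ± 0.17, adjusted p = 0.000159). Its smaller rises with CpG (0.74 ± 0.18) and CpG+SWNT/LP (0.66 ± 0.17) lost their calls without untreated replicate 2 (log2 0.57, adjusted p = 0.191 and log2 0.52, adjusted p = 0.201). Sema4b, Sema4c and Sema5a, which are plexin ligands at the cell surface, were called in none of the comparisons against untreated, at 33.7 to 40.2, 26.0 to 32.6 and 61.1 to 83.9 CPM over the 14 libraries.

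Of the 9 plexins tested in K-Luc, 4 rose with CpG, 4 with CpG+SWNT/LP and 5 with SWNT/CpG, and none fell. Plxnd1, the receptor of Sema3e, was at 124 and 121 CPM in untreated, 146, 119 and 126 in SWNT/LP, 187, 172 and 173 in CpG, 183, 187 and 186 in CpG+SWNT/LP and 165, 165 and 169 in SWNT/CpG libraries. Every library with CpG was above every library without it, and the rises were 0.53 ± 0.07, 0.60 ± 0.07 and log2 0.44 ± 0.07, adjusted p = 9.29e-05. Plxnb1, a receptor of Sema4d, rose most with SWNT/CpG, from 22.3 and 17.7 to 33.7, 28.4 and 29.3 CPM (log2 0.65 ± 0.11, adjusted p = 0.00015). Sema4d itself had 0 to 5 reads per K-Luc library. Plxnb2, the most abundant member, rose by 0.21 ± 0.07, 0.20 ± 0.07 and 0.18 ± 0.07 with CpG, CpG+SWNT/LP and SWNT/CpG, and all 3 calls were lost without untreated replicate 2, the last at log2 0.09, adjusted p = 0.558. Leaving out any 1 SWNT/CpG library (adjusted p of 0.0758 to 0.106), any 1 CpG+SWNT/LP library (0.061 to 0.0984) or CpG replicate 1 (log2 0.16, adjusted p = 0.112) also ended the call concerned. The called rise of Plxnc1 rested on 7 and 12 reads in the untreated libraries and is not described further.

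**Figure D3:**
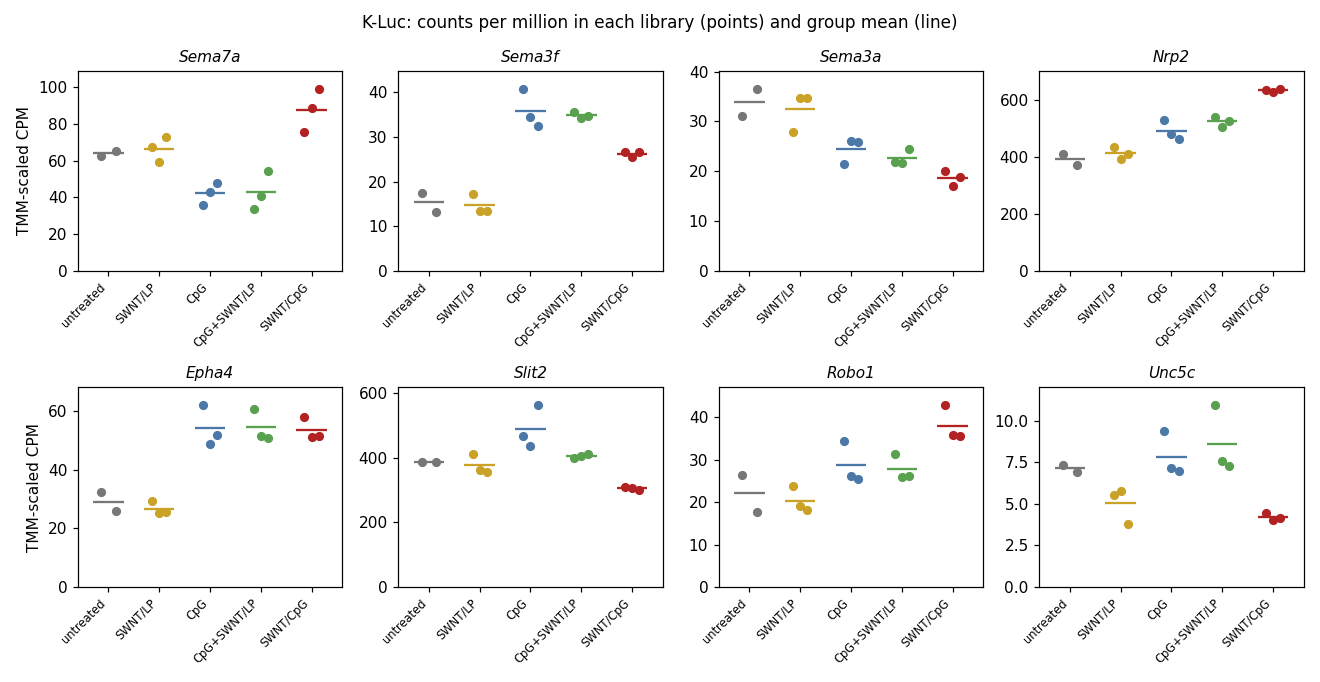
CPM, scaled for library composition, of 8 members in each of the 14 K-Luc libraries (points) by treatment, with the group mean as a line and every axis starting at 0. Sema7a is lowest with unbound CpG and highest with SWNT/CpG, Slit2 and Unc5c are lowest or near lowest with SWNT/CpG, and Sema3f and Epha4 are high in all 3 groups with CpG.

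The Eph receptors that were called against untreated cells in K-Luc all rose. Of 9 Eph receptors tested in K-Luc, 4 rose with CpG, 4 with CpG+SWNT/LP and 5 with SWNT/CpG, and none fell. Epha4, which binds ephrins of both classes, was at 32.4 and 25.7 CPM in untreated, 29.3, 25.0 and 25.6 in SWNT/LP, 61.9, 48.6 and 51.9 in CpG, 60.7, 51.6 and 50.7 in CpG+SWNT/LP and 57.7, 51.0 and 51.5 in SWNT/CpG libraries. The groups with and without CpG did not overlap, and the rises were log2 1.03 ± 0.10, adjusted p = 3.96e-06, log2 0.95 ± 0.09, adjusted p = 6.30e-06 and log2 0.93 ± 0.09, adjusted p = 1.28e-06, with no call between SWNT/CpG and either unbound group. Ephb6, an Eph receptor without kinase activity, went from 32.4 and 25.9 CPM in untreated to 57.7, 54.0 and 56.3 in CpG, 57.1, 57.4 and 57.4 in CpG+SWNT/LP and 50.8, 49.2 and 47.8 in SWNT/CpG libraries. Its rise was log2 1.01 ± 0.09, adjusted p = 2.38e-06 with CpG and log2 0.79 ± 0.09, adjusted p = 2.74e-06 with SWNT/CpG. It was lower with SWNT/CpG than with CpG+SWNT/LP (log2 -0.22 ± 0.07, adjusted p = 0.0408), a call lost without any 1 of 5 of the 6 libraries (adjusted p of 0.0887 to 0.154). Epha7, at about 1 CPM, was lower with SWNT/CpG than with CpG (log2 -0.80 ± 0.25, adjusted p = 0.04), a call lost with DESeq2 (log2 -0.80, adjusted p = 0.176) and without any 1 of 5 of the 6 libraries (adjusted p of 0.0838 to 0.158). Epha3, an A-class receptor, rose by 1.43 ± 0.27, 1.34 ± 0.26 and 1.45 ± 0.26 from 12.7 and 8.14 CPM, the largest fold among the receptors. Its first 2 calls were lost without untreated replicate 2 (log2 1.28, adjusted p = 0.0707 and log2 1.21, adjusted p = 0.0656). Ephb3 rose by 0.61 ± 0.11, 0.52 ± 0.10 and 0.55 ± 0.10, the second call being lost without untreated replicate 2 (log2 0.50, adjusted p = 0.0531).

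Epha2, the most abundant Eph receptor of K-Luc, stayed between 73.4 and 108 CPM and was called in no comparison. Its main ligand Efna1 rose with SWNT/CpG, from 22.6 and 21.5 to 28.8, 29.6 and 29.2 CPM (log2 0.41 ± 0.09, adjusted p = 0.00142), a call lost without untreated replicate 2 (log2 0.35, adjusted p = 0.071). Of the 8 ephrins tested, 2 rose with CpG (Efna5 by 0.24 ± 0.06 and Efnb1 by 0.41 ± 0.14) and 1 with each of the other forms. Both CpG calls were lost without untreated replicate 2 (log2 0.14, adjusted p = 0.322 for Efna5 and log2 0.33, adjusted p = 0.368 for Efnb1), and that of Efnb1 also without untreated replicate 1 (log2 0.45, adjusted p = 0.0586) or CpG replicate 1 (log2 0.28, adjusted p = 0.113). Efnb2, the most abundant ephrin and a ligand of the B-class receptors, was at 92.2 to 125 CPM and was not called.

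With SWNT/CpG the ligand Slit2 fell in K-Luc, and the receptors Robo1 and Robo2 rose. Slit2 was at 387 and 387 CPM in untreated, 410.0, 363 and 354 in SWNT/LP, 466, 437 and 562 in CpG, 399, 406 and 411 in CpG+SWNT/LP and 309.5, 307 and 299 in SWNT/CpG libraries. The 3 CpG libraries were the highest and the 3 SWNT/CpG libraries the lowest of the 14. Slit2 rose with CpG (log2 0.33 ± 0.09, adjusted p = 0.0101) and fell with SWNT/CpG (log2 -0.34 ± 0.08, adjusted p = 0.00426), and both calls were lost without untreated replicate 2 (log2 0.33, adjusted p = 0.145 and log2 -0.34, adjusted p = 0.0657). The direct contrasts held under every alternative: SWNT/CpG was below CpG by log2 -0.68 ± 0.08, adjusted p = 3.65e-05 and below CpG+SWNT/LP by log2 -0.41 ± 0.07, adjusted p = 0.00138. Slit3 was at 88.8 and 66.0 CPM in untreated and 141, 113 and 112 with SWNT/CpG, and its rises with CpG (0.94 ± 0.25), CpG+SWNT/LP (0.76 ± 0.23) and SWNT/CpG (0.73 ± 0.23) were each lost without untreated replicate 2 (log2 0.90, adjusted p = 0.162, log2 0.72, adjusted p = 0.207 and log2 0.69, adjusted p = 0.19). With SWNT/CpG that call was also lost without any other 1 library of the 2 groups, and with CpG+SWNT/LP without untreated replicate 1 or CpG+SWNT/LP replicate 1 or 2 (log2 0.79, adjusted p = 0.11, log2 0.76, adjusted p = 0.0873 and log2 0.74, adjusted p = 0.0578).

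Robo1, a receptor of both Slits, was at 26.5 and 17.6 CPM in untreated, 23.8, 19.1 and 18.2 in SWNT/LP, 34.3, 26.2 and 25.5 in CpG, 31.3, 25.9 and 26.1 in CpG+SWNT/LP and 42.8, 35.8 and 35.5 in SWNT/CpG libraries. The SWNT/CpG libraries were the 3 highest, and the CpG and CpG+SWNT/LP libraries overlapped the untreated ones. The rise with SWNT/CpG was log2 0.87 ± 0.13, adjusted p = 0.000106, and those with CpG (0.58 ± 0.14) and CpG+SWNT/LP (0.42 ± 0.13) were lost without untreated replicate 2 (log2 0.38, adjusted p = 0.24 and log2 0.24, adjusted p = 0.435), the latter also without any 1 CpG+SWNT/LP library (adjusted p of 0.0582 to 0.0637). Robo2 had 13.4 and 8.67 CPM in untreated and 25.6, 17.6 and 18.1 with SWNT/CpG, a rise of log2 1.01 ± 0.19, adjusted p = 0.000687. Replicate 1 of the untreated, CpG+SWNT/LP and SWNT/CpG groups came from another sequencing run. The run term of the fit was called for 2155 of all 12420 genes tested. Among the 53 members it was called for 7, Efna5, Epha4, Ephb2, Ntn1, Robo1, Robo2 and Sema3d. Replicate 1 could also stand apart in CpG and SWNT/LP, whose libraries all came from the second run. Ntn1 was at 41.7, 58.4 and 61.4 CPM in CpG and 48.7, 58.3 and 60.9 in SWNT/LP. Robo2 was at 14.9, 9.19 and 11.5 CPM in CpG and 12.9, 8.16 and 10.0 in SWNT/LP. Ephb2 and Sema3d had no such offset in SWNT/LP. The run term thus does not tell run from replicate number, and it leaves those groups unadjusted for replicate.

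Unc5c, a netrin receptor of low abundance in K-Luc, was at 7.35 and 6.90 CPM in untreated, 5.55, 5.76 and 3.78 in SWNT/LP, 9.39, 7.14 and 6.95 in CpG, 10.9, 7.55 and 7.26 in CpG+SWNT/LP and 4.43, 4.02 and 4.12 in SWNT/CpG libraries. The SWNT/CpG libraries overlapped those of SWNT/LP and lay below those of the other 3 groups. SWNT/CpG was below CpG by log2 -1.0 ± 0.17, adjusted p = 0.000718 and below CpG+SWNT/LP by log2 -1.0 ± 0.17, adjusted p = 0.000451, and the fall against untreated (log2 -0.72 ± 0.19, adjusted p = 0.00702) was lost without untreated replicate 2 (log2 -0.52, adjusted p = 0.206). Unc5b, far more abundant at 127 to 215 CPM, was called in no comparison. The ligand Ntn1 rose with SWNT/CpG (log2 0.49 ± 0.15, adjusted p = 0.0165), with libraries at 43.3 and 56.9 CPM in untreated and 60.0, 82.7 and 81.8 with SWNT/CpG. That call was lost without untreated replicate 2 (log2 0.39, adjusted p = 0.23) and without SWNT/CpG replicate 1 (log2 0.46, adjusted p = 0.0602). Ntn4, a netrin of basement membranes, rose by 0.36 ± 0.10, 0.33 ± 0.10 and 0.36 ± 0.10 with the 3 forms of CpG, each lost without untreated replicate 2 (log2 0.29, adjusted p = 0.252, log2 0.26, adjusted p = 0.256 and log2 0.30, adjusted p = 0.159).

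SWNT/CpG was set against CpG+SWNT/LP and against CpG by 2 direct contrasts. The first also differs in lipid-PEG and the second in the presence of nanotubes, so neither isolates the joining. Between SWNT/CpG and CpG+SWNT/LP 17 of 53 members were called, 7 higher and 10 lower, against 17.7% of all genes (8.54% higher, 9.12% lower). Between SWNT/CpG and CpG 13 were called, 6 higher and 7 lower, against 14.9% (7.29% higher, 7.58% lower). Sema7a, Nrp2, Slit2 and Unc5c kept their calls in both contrasts under every alternative tried. The first count was 9 without the run term, 7 with run 2 alone, 10 and 11 without CpG+SWNT/LP replicate 1 and 3, and 11, 11 and 9 without SWNT/CpG replicate 1, 2 and 3. The second was 7 without the run term and 8 without SWNT/CpG replicate 2. Counts over all genes were not set beside these, so whether the falls are particular to the members was not tested. Robo2 was higher with SWNT/CpG than with CpG+SWNT/LP (log2 0.60 ± 0.15, adjusted p = 0.0142) and than with CpG (log2 0.55 ± 0.16, adjusted p = 0.0365). The first of these calls was lost without CpG+SWNT/LP replicate 3 (log2 0.54, adjusted p = 0.0675) or SWNT/CpG replicate 3 (log2 0.57, adjusted p = 0.058), and the second without 4 of the 6 libraries, with adjusted p of 0.103 to 0.148.

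In RAW-Blue macrophages most called members fell, led by plexins and by the semaphorins Sema4g, Sema4d and Sema5a. With CpG 10 of 26 tested members were called, 1 higher and 9 lower, against 10.8% of all 11514 genes (5.18% higher, 5.6% lower). With CpG+SWNT/LP 15 were called, 5 higher and 10 lower, against 20.3% (10.1% higher, 10.1% lower), and with SWNT/CpG 13, 5 higher and 8 lower, against 23.2% (12.8% higher, 10.4% lower). The median log2 fold change of the tested members was -0.05, -0.08 and -0.08, beside 0.01, 0.00 and 0.00 over all genes. With SWNT/LP edgeR called 0 of 26 against 0.478% of all genes (0.434% higher, 0.0434% lower). An unadjusted p below 0.05 was found for 4 members, and DESeq2 called 1. The 2 untreated libraries stood apart from each other, as in Sema6d at 2.80 and 7.32 CPM: without untreated replicate 2, 4207 genes and 7 members were called with SWNT/LP instead of 55 and 0. Leaving out a treated library also moved the counts, to 2 and 1 with CpG (without CpG replicate 1 or 2), to 8 with CpG+SWNT/LP (without its replicate 1) and to 8 with SWNT/CpG (without its replicate 2). All 5 groups shared 1 estimate of the spread, and fits of the 2 compared groups alone called 0, 3 and 5 members with CpG, CpG+SWNT/LP and SWNT/CpG. Over all genes those fits called 125, 443 and 899, against 1241, 2332 and 2673 with the shared estimate. Against untreated, calls held under every alternative for Epha2 and Plxna1 with CpG+SWNT/LP. With SWNT/CpG they held for Nrp1, Plxna1, Plxnb2, Sema4c and Sema4g, and with CpG for no member.

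Nrp1, the co-receptor of class 3 semaphorins and of VEGF, rose in RAW-Blue with SWNT/CpG and was called with none of the other 3 treatments. It was at 24.1 and 24.9 CPM in untreated, 27.5 and 25.3 in SWNT/LP, 23.8 and 26.3 in CpG, 25.0 and 22.4 in CpG+SWNT/LP and 51.0 and 37.7 in SWNT/CpG libraries. Both SWNT/CpG libraries were above the other 8, and they differed from each other more than those 8 did. The rise was log2 0.85 ± 0.14, adjusted p = 0.00182, and the estimates with the other treatments were 0.11 ± 0.14 (SWNT/LP), 0.03 ± 0.14 (CpG) and -0.05 ± 0.14 (CpG+SWNT/LP). SWNT/CpG exceeded CpG+SWNT/LP by log2 0.90 ± 0.14, adjusted p = 0.026 and CpG by log2 0.82 ± 0.14, adjusted p = 0.0319. Those 2 calls were lost without SWNT/CpG replicate 1 (log2 0.67, adjusted p = 0.285 and log2 0.59, adjusted p = 0.314), and each was also lost without either library of the group compared, with adjusted p of 0.105 to 0.393. Nrp2, far more abundant at 792 to 1079 CPM, rose by log2 0.36 ± 0.07, adjusted p = 0.00649 with CpG+SWNT/LP and log2 0.28 ± 0.07, adjusted p = 0.0167 with SWNT/CpG. These calls were lost without CpG+SWNT/LP replicate 1 (log2 0.32, adjusted p = 0.0672) and without either SWNT/CpG library (log2 0.24, adjusted p = 0.147 and log2 0.32, adjusted p = 0.0546).

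**Figure D4:**
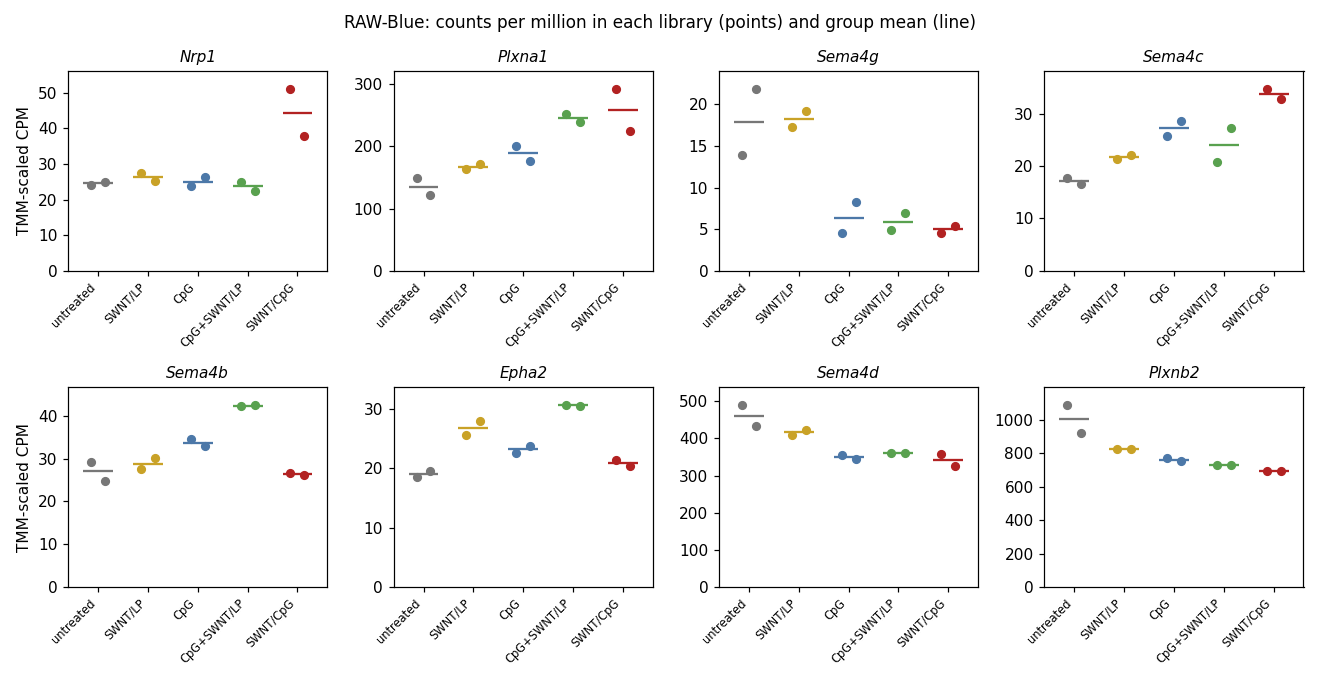
CPM, scaled for library composition, of 8 members in each of the 10 RAW-Blue libraries (points) by treatment, with the group mean as a line and every axis starting at 0. Nrp1 is raised in the 2 SWNT/CpG libraries, Plxna1 and Sema4c lie above the untreated libraries in all groups with CpG, Sema4g lies below them, and Sema4b and Epha2 peak with CpG+SWNT/LP.

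Among the RAW-Blue plexins Plxna1 rose and the others that were called fell. Plxna1, a signalling partner of neuropilins, was at 149 and 121 CPM in untreated, 163 and 171 in SWNT/LP, 201 and 176 in CpG, 251 and 238 in CpG+SWNT/LP and 292 and 224 in SWNT/CpG libraries. It rose with CpG+SWNT/LP (log2 0.85 ± 0.14, adjusted p = 0.00261) and SWNT/CpG (log2 0.93 ± 0.14, adjusted p = 0.0012), and was not called with CpG (log2 0.48 ± 0.14, adjusted p = 0.0529). An annotated antisense-strand gene overlaps 10.7% of its exon bases, and whether counting used strand is not given in the sources used here. Plxnb2 fell with all 3 forms of CpG, with 1086 and 919 CPM in untreated, 823 and 826 in SWNT/LP, 769 and 751 in CpG, 731 and 729 in CpG+SWNT/LP and 692 and 690.1 in SWNT/CpG libraries. Its falls were -0.40 ± 0.08, -0.46 ± 0.08 and log2 -0.54 ± 0.08, adjusted p = 0.0013, the first of them lost without CpG replicate 1 (log2 -0.42, adjusted p = 0.0827) or 2 (log2 -0.38, adjusted p = 0.113). Plxnd1 fell from 407 and 361 to 278 and 275 CPM with SWNT/CpG (log2 -0.48 ± 0.08, adjusted p = 0.00171), by -0.41 ± 0.08 with CpG and by -0.40 ± 0.08 with CpG+SWNT/LP. The call with CpG was lost without CpG replicate 2 (log2 -0.37, adjusted p = 0.0984) and that with CpG+SWNT/LP without its replicate 1 (log2 -0.38, adjusted p = 0.0595). The SWNT/CpG call of Plxnd1 also did not hold under every alternative. Plxna3 fell by -0.70 ± 0.18, -0.79 ± 0.18 and -0.89 ± 0.18, calls that were lost without either CpG library (adjusted p of 0.15 to 0.185) or untreated replicate 2 (log2 -0.55, adjusted p = 0.0706), without either CpG+SWNT/LP library (0.054 to 0.102) and without SWNT/CpG replicate 2 (log2 -0.78, adjusted p = 0.064). Plxnc1 fell with CpG (-0.54 ± 0.13) and CpG+SWNT/LP (log2 -0.73 ± 0.13, adjusted p = 0.00431), the former not without either CpG library (log2 -0.46, adjusted p = 0.183 and log2 -0.64, adjusted p = 0.084).

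Sema4g, a class 4 semaphorin that binds Plxnb2, fell most among RAW-Blue members. It was at 13.9 and 21.8 CPM in untreated, 17.2 and 19.1 in SWNT/LP, 4.52 and 8.25 in CpG, 4.85 and 6.93 in CpG+SWNT/LP and 4.57 and 5.40 in SWNT/CpG libraries, and the 6 libraries with CpG were below the 4 without it. The falls were -1.48 ± 0.30, -1.59 ± 0.30 and log2 -1.84 ± 0.31, adjusted p = 0.00322, the first not called without CpG replicate 1 (log2 -1.12, adjusted p = 0.0917) and the second not without CpG+SWNT/LP replicate 1 (log2 -1.36, adjusted p = 0.0628). Sema4d was at 489 and 433 CPM in untreated and 325 to 361 CPM in the 6 libraries with CpG. It fell by -0.40 ± 0.08, -0.35 ± 0.08 and log2 -0.43 ± 0.08, adjusted p = 0.00365, and the first 2 calls were lost without either library of the treated group, with adjusted p of 0.0749 to 0.114. Sema5a was at 160.0 and 201 CPM in untreated and 117 and 120.3 CPM with SWNT/CpG (log2 -0.61 ± 0.10, adjusted p = 0.00226). The SWNT/CpG calls of Sema4d and Sema5a did not hold under every alternative.

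Sema4c, a ligand of Plxnb2, went the other way, with 17.7 and 16.6 CPM in untreated, 21.3 and 22.1 in SWNT/LP, 25.8 and 28.7 in CpG, 20.8 and 27.3 in CpG+SWNT/LP and 34.7 and 32.9 in SWNT/CpG libraries. Its rises were 0.67 ± 0.13, 0.49 ± 0.13 and log2 0.98 ± 0.13, adjusted p = 0.000597. The first was lost without CpG replicate 2 (log2 0.59, adjusted p = 0.0994) and the second without CpG+SWNT/LP replicate 2 (log2 0.27, adjusted p = 0.219). Sema4a at 55.6 to 74.3 CPM was called in no comparison, and Sema6b fell with CpG+SWNT/LP only (log2 -0.44 ± 0.11, adjusted p = 0.0205), not without CpG+SWNT/LP replicate 1 (log2 -0.34, adjusted p = 0.171). Sema7a had at most 1 read in an untreated and 5 to 10 reads in a CpG-treated RAW-Blue library, so no fold is given.

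Ephrins and Eph receptors were scarce in RAW-Blue, where 3 of 8 ephrins and 1 of 14 Eph receptors could be tested. Epha2, that receptor, was at 18.5 and 19.6 CPM in untreated, 25.6 and 28.0 in SWNT/LP, 22.6 and 23.7 in CpG, 30.6 and 30.5 in CpG+SWNT/LP and 21.4 and 20.3 in SWNT/CpG libraries. It rose with CpG+SWNT/LP (log2 0.68 ± 0.09, adjusted p = 0.00081) and was not called with SWNT/LP (log2 0.49 ± 0.09, adjusted p = 0.0539), CpG (log2 0.28 ± 0.09, adjusted p = 0.0764) or SWNT/CpG (log2 0.13 ± 0.09, adjusted p = 0.334). Sema4b was also highest in that group, at 29.3 and 24.7 CPM in untreated, 42.2 and 42.5 with CpG+SWNT/LP and 26.5 and 26.2 with SWNT/CpG, a rise of log2 0.65 ± 0.10, adjusted p = 0.0016 with the unjoined mixture. This call of Sema4b did not hold under every alternative. The ephrin Efna1, a ligand of Epha2, fell with CpG+SWNT/LP from 3.02 and 2.16 to 1.13 and 0.759 CPM (log2 -1.46 ± 0.32, adjusted p = 0.0114), not without CpG+SWNT/LP replicate 2 (log2 -1.19, adjusted p = 0.094). Unc5b fell from 7.87 and 7.63 CPM by -0.70 ± 0.15, -0.94 ± 0.15 and -0.49 ± 0.15 with CpG, CpG+SWNT/LP and SWNT/CpG. Its first call was lost without either CpG library (log2 -0.62, adjusted p = 0.129 and log2 -0.79, adjusted p = 0.076) and its last without either SWNT/CpG library (log2 -0.61, adjusted p = 0.0799 and log2 -0.38, adjusted p = 0.23) or untreated replicate 1 (log2 -0.47, adjusted p = 0.0633).

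Joined and unjoined CpG differed at few members in macrophages. Between SWNT/CpG and CpG+SWNT/LP 3 of 26 members were called, Nrp1 higher and Sema4b (log2 -0.68 ± 0.10, adjusted p = 0.0249) and Epha2 (log2 -0.55 ± 0.09, adjusted p = 0.0315) lower, against 0.825% of all genes. Leaving out any 1 of the 4 libraries ended the calls of Sema4b and Epha2, with adjusted p from 0.0889 (Sema4b without CpG+SWNT/LP replicate 2) to 0.319 (Epha2 without CpG+SWNT/LP replicate 1). Between SWNT/CpG and CpG 1 of 26 was called, Nrp1, against 0.842% of all genes.

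Whether the 2 lines responded differently was tested by an interaction in a fit over all 24 libraries. The response to SWNT/CpG differed at 13 of 54 members, 3 more positive and 10 more negative in RAW-Blue, against 25.4% of all 13350 genes (14.4% more positive, 11.1% more negative). The response to CpG also differed at 13, again 3 and 10, against 21.9% (11.3% and 10.6%). Only 24 members had enough counts to be tested in each line alone, and all 13 called for SWNT/CpG were among them. Most of the other members had few or no reads in RAW-Blue, so a difference could hardly be called for them. The share of 54 is thus not a share of members that could have been called. Plxnd1 and Plxnb2 rose in K-Luc and fell in RAW-Blue with both treatments, as given above, and Plxnd1 had the smallest adjusted p in both tests (log2 difference -0.92 ± 0.11, adjusted p = 1.89e-06 for SWNT/CpG). Nrp1 differed by 0.88 ± 0.13, adjusted p = 2.49e-05 for SWNT/CpG, and Nrp2, which rose in both lines, by -0.43 ± 0.10, adjusted p = 0.00168. Since line, treatment time and plating vary together, which of them the differences follow cannot be told apart.

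**Figure D5:**
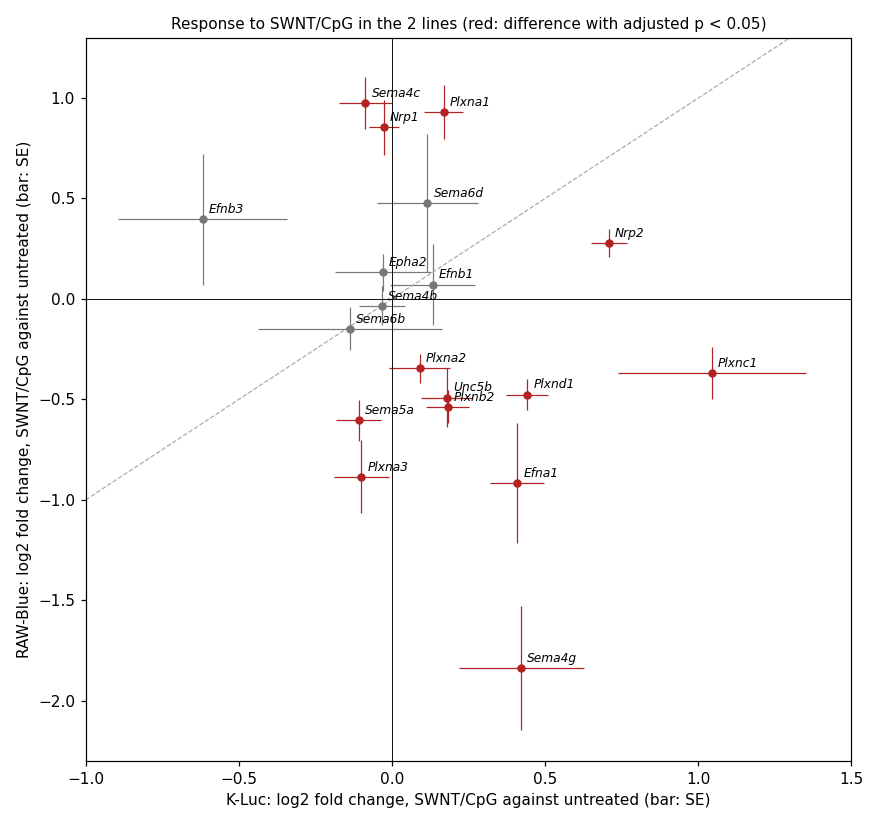
Log2 fold change with SWNT/CpG against untreated cells in K-Luc (horizontal) and RAW-Blue (vertical) for the 19 members whose average log2 CPM was 0 or more in both lines, with SE bars, red where the difference between lines had an adjusted p below 0.05 (13 members) and a dashed line where both would be equal. Plxnd1, Plxnb2 and Efna1 are among the members right of and below 0, and Nrp1 and Sema4c lie near 0 on the K-Luc axis and above 0.8 on the RAW-Blue axis.

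The co-receptors and effectors that carry guidance signals inward were followed as a list of 70 genes outside the member families. In K-Luc 55 were tested, and with SWNT/CpG 14 were higher and 5 lower than in untreated cells, against 21.8% and 21.3% of all genes. The Rac regulator Chn1, which acts below Epha4, fell (log2 -0.77 ± 0.08, adjusted p = 1.27e-06), as did the ephexin Ngef, an exchange factor that acts below Eph receptors (log2 -1.03 ± 0.15, adjusted p = 3.76e-05), and the receptor kinase Met, a plexin-B partner (log2 -0.39 ± 0.06, adjusted p = 5.60e-05). The GTPase Rras, a target of plexin GAP domains (log2 0.73 ± 0.09, adjusted p = 8.73e-06), and the Slit-Robo GTPase-activating protein Srgap3 (log2 0.38 ± 0.06, adjusted p = 0.00013) rose. In RAW-Blue 42 were tested, with 7 higher and 12 lower, against 12.8% and 10.4%. Cd72, the Sema4d receptor of leukocytes, fell (log2 -0.60 ± 0.07, adjusted p = 0.000196) together with its ligand, as did Trem2, a partner of Plxna1 in myeloid cells (log2 -0.84 ± 0.10, adjusted p = 0.000357), and the Rac effector kinase Pak1 (log2 -0.67 ± 0.08, adjusted p = 0.000245). Rnd1, a GTPase that binds plexins (log2 1.24 ± 0.21, adjusted p = 0.00249), and the exchange factor Trio (log2 0.41 ± 0.07, adjusted p = 0.00321) rose. Unlike those of the members, the calls of this list were not followed under the alternatives in either line.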

How the data were processed

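Each library is polyadenylated RNA sequenced from a stranded kit. The authors deposited a table of read counts per gene and a table of RPKM (reads scaled by gene length and library size) rounded to 1 decimal, both with gene symbols. The submitters' processing notes name HTSeq 0.6.0, the mouse build mm9 and TopHat2 2.0.14. How strand was set and which annotation was counted is not given in the sources used here. Genes with shared exon bases may therefore share reads, and mm9 coordinates are not printed. Groups follow the labels. All 24 deposited columns were mapped, and no 2 libraries held identical values.

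From the counts, genes passing edgeR's filterByExpr (minimum count 10, minimum total 15) were scaled by TMM and tested with the robust quasi-likelihood fit (R 4.3.3, edgeR 4.0.16) in 3 fits: K-Luc (14 libraries, group and sequencing run, 8 residual degrees of freedom), RAW-Blue (10 libraries, group, 5) and both lines (24 libraries, group and run, 13). P-values were adjusted by Benjamini-Hochberg over all genes tested, and a gene was called at adjusted p below 0.05. SE is the log2 fold change divided by the square root of F. RPKM served only for levels. Scripts were tested on simulated data. The alternatives were leaving out each library, the replicate number as a block, run 2 alone, no run term, fits of 2 groups, no filter, edgeR with DESeq2 size factors, and DESeq2 1.42.0. Per comparison, the text names called members with mean log2 CPM of at least 0 (taken from the 12 smallest adjusted p and the 8 largest folds, not all of them), the 10 highest levels per line, partners of named members, and up to 6 effectors per line. Members chosen beyond that rule (Efna5, Efnb1, Sema4a, Sema6d and others given as values) were picked after their values were seen. The members and lists were chosen with earlier results of these data known.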

Additional observations from a re-analysis of the deposited data

Results flagged for a closer look

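A difference in response between the 2 lines, tested by an interaction, was found for the members below (log2 response in RAW-Blue minus that in K-Luc, ± SE, edgeR quasi-likelihood test with Benjamini-Hochberg adjustment over 13350 genes). For SWNT/CpG the response was more positive in RAW-Blue for Sema4c (1.06 ± 0.15, adjusted p = 2.17e-05), Nrp1 (0.88 ± 0.13, adjusted p = 2.49e-05) and Plxna1 (0.76 ± 0.15, adjusted p = 0.00054). It was more negative in RAW-Blue for the plexins Plxnd1 (-0.92 ± 0.11, adjusted p = 1.89e-06), Plxnb2 (-0.72 ± 0.12, adjusted p = 6.70e-05), Plxnc1 (-1.41 ± 0.36, adjusted p = 0.00563), Plxna3 (-0.80 ± 0.21, adjusted p = 0.00684) and Plxna2 (-0.44 ± 0.13, adjusted p = 0.0163). The same direction was found for the semaphorins Sema4g (-2.26 ± 0.37, adjusted p = 0.000113) and Sema5a (-0.50 ± 0.12, adjusted p = 0.00364), for Nrp2 (-0.43 ± 0.10, adjusted p = 0.00168), for the ephrin Efna1 (-1.32 ± 0.27, adjusted p = 0.000908) and for the netrin receptor Unc5b (-0.67 ± 0.17, adjusted p = 0.00613).

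For CpG the response was more positive in RAW-Blue for Sema4c (0.72 ± 0.16, adjusted p = 0.00211). It was more negative there for Plxnd1 (-0.97 ± 0.11, adjusted p = 4.29e-06), Plxnb2 (-0.63 ± 0.12, adjusted p = 0.000631), Plxnc1 (-1.61 ± 0.36, adjusted p = 0.00267), Plxna3 (-0.82 ± 0.21, adjusted p = 0.0068), Plxna2 (-0.48 ± 0.14, adjusted p = 0.0129), Sema4g (-1.98 ± 0.37, adjusted p = 0.000723), Sema5a (-0.51 ± 0.12, adjusted p = 0.00468), Unc5b (-0.92 ± 0.18, adjusted p = 0.000945) and Efna1 (-0.95 ± 0.27, adjusted p = 0.0142). Ephb4, Sema7a and Plxna4 were also called for CpG but had RAW-Blue libraries without a count, and no size is given. Both differences of Plxnc1 rest on 7 and 12 reads in the untreated K-Luc libraries. The 2 tests share the untreated libraries of both lines. The calls for SWNT/CpG of Plxna2, Plxna3, Plxnc1 and Unc5b were each lost when 1 library was left out: Plxna2 without K-Luc untreated replicate 2 (-0.36, adjusted p = 0.156) or RAW-Blue SWNT/CpG replicate 2 (-0.40, adjusted p = 0.0753), Plxna3 without RAW-Blue SWNT/CpG replicate 2 (-0.71, adjusted p = 0.0601), Plxnc1 without K-Luc untreated replicate 2 (-1.53, adjusted p = 0.0665), and Unc5b without K-Luc untreated replicate 2 (-0.53, adjusted p = 0.0538) or RAW-Blue SWNT/CpG replicate 2 (-0.58, adjusted p = 0.0588). For CpG, Efna1 lost its call without K-Luc untreated replicate 2 (-0.89, adjusted p = 0.0708), RAW-Blue untreated replicate 1 (-0.67, adjusted p = 0.131) or RAW-Blue CpG replicate 2 (-0.65, adjusted p = 0.148), Plxna2 without K-Luc untreated replicate 2 (-0.37, adjusted p = 0.194) or RAW-Blue CpG replicate 2 (-0.43, adjusted p = 0.0599), and Plxnc1 without K-Luc untreated replicate 2 (-1.73, adjusted p = 0.0619).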

How the results depend on the processing

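Over the 219 pairs of a called member and a comparison, 2507 alternative values were computed: 2154 kept the sign and the call, 353 kept the sign and lost the call, and none had the opposite sign. In 110 pairs the call held under every alternative: 50 of 51 between the untreated lines, 16 of 26 differences in response between lines, and 44 of 142 between treatments within a line, among them 0 of 10 with CpG in RAW-Blue. In K-Luc the number of members called between SWNT/CpG and CpG+SWNT/LP, 17 in the fit reported, was 9 without the run term and 7 with run 2 alone, and between SWNT/CpG and CpG, 13 there, it was 7 without the run term. With run 2 alone, 12 instead of 21 were called with CpG+SWNT/LP against untreated. Counts over all genes were not set beside these K-Luc counts. In RAW-Blue fits of the 2 compared groups alone called 0 members with CpG, 3 with CpG+SWNT/LP and 5 with SWNT/CpG against untreated, and 6 and 3 between SWNT/CpG and CpG+SWNT/LP or CpG, and DESeq2 and the fit without a filter each called 1 with SWNT/LP. With 1 library left out, counts ranged in K-Luc from 8 to 24 (CpG), 9 to 18 (CpG+SWNT/LP) and 14 to 24 (SWNT/CpG) against untreated, 9 to 12 (SWNT/CpG and CpG+SWNT/LP) and 8 to 18 (SWNT/CpG and CpG), and in RAW-Blue from 1 to 14 (CpG), 0 to 7 (SWNT/LP), 8 to 17 (CpG+SWNT/LP) and 8 to 16 (SWNT/CpG) against untreated and 0 to 1 in both contrasts of SWNT/CpG with unjoined CpG. Where this left 1 untreated library, it was assumed to vary like the other groups. Replicate numbers were not taken to pair the libraries, since not every correlation of same-numbered deviations was over 0.1: they ran from -0.03 to 0.51 in K-Luc (20 of 26 pairs over 0.1, 13 of 14 libraries correlating best with their own number) and from -0.10 to 0.18 in RAW-Blue (4 of 20 pairs over 0.1, 10 of 10 libraries). With 2 libraries in every RAW-Blue group the deviations mirror each other. Each correlation there appears once for each replicate number, so the RAW-Blue counts are doubled. In K-Luc most libraries thus shared deviations with their own replicate number, which hints at pairing, whereas the mirrored RAW-Blue deviations cannot decide it. The values reported for both lines come from fits without the replicate numbers. With the replicate number as a block, 26 members were called between SWNT/CpG and CpG+SWNT/LP and 25 between SWNT/CpG and CpG in K-Luc, and every other count was within 1.5 times that reported. Counts over all genes are not given here for the block or for the ranges with 1 library left out. Whether these changes are particular to the members was not tested.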
